A study of Mus musculus with 12 samples.

Results

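Extracellular matrix and fibrosis genes were followed as a set of 36 genes among the 54751 features of a total-RNA table from mouse hearts. The members are 13 collagen chains, the glycoproteins of elastic fibres and microfibrils, matricellular proteins, small leucine-rich proteoglycans, crosslinking enzymes, the protease inhibitor Timp1 and the 3 TGF-beta ligands, taken by gene symbol. Each of the 36 matched 1 row, and all 36 were tested, along with every other feature whose normalised counts averaged 10 or more over the 6 libraries, 18250 in all. None of the 36 was called different between the genotypes.

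Hearts came from C57BL/6N mice 52 weeks old. The knockout group (Rexo2loxP/loxPloxP/loxP, +/Ckmm, as its label is spelled) and the control group (Rexo2loxP/loxP) had 3 libraries each, and both carry loxP sites in both copies of Rexo2, the gene of an oligoribonuclease. Ckmm is the symbol of the muscle creatine kinase gene, and its promoter is known for driving Cre in striated muscle cells rather than in fibroblasts. A control with the Ckmm allele and intact Rexo2 was not analysed here, so the allele and the loss of Rexo2 cannot be told apart. Column names give library numbers that no label links to an animal. The p-values therefore rest on the spread among libraries, part of which may be technical.

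The cardiac extracellular matrix is made largely by fibroblasts, with the basement membrane also supplied by endothelial and muscle cells. Fibrillar collagens give tensile strength, lysyl oxidases crosslink them, and matricellular proteins modulate how cells attach and respond. In fibrosis TGF-beta drives fibroblasts towards myofibroblasts, which deposit collagen, periostin and fibronectin. A raised level of such genes is a common sign of heart failure.

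Reads summed over all features, those of mtDNA included, were 41979163 to 49722049 in the knockout libraries and 43561069 to 50764023 in the controls. Of these, 11966300 to 13980668 in knockout and 13275584 to 15556993 in control libraries lay on nuclear features. The 36 members held 22687 to 29053 reads per library. Rexo2 (chromosome 9) held 274, 288 and 314 normalised counts in knockout 492, 499 and 501, and 330, 368 and 293 in control 490, 498 and 502. These groups overlapped, and the log2 fold change was -0.17 (SE 0.10, limma adjusted p = 1.00). The deleted part of Rexo2 is not given, so a count over the whole gene does not check the labels. Control 490 had a score of -30.1 on the first principal component of all tested features, and scores of -5.63 to 16.7 were found in the rest. The tissue label is heart, with no chamber named, and the atrial genes Myl7 and Sln were nearly absent. Myl7 ranged from 0 to 3.38 normalised counts in the knockout libraries and was at 0 in all controls, and Sln did not pass 0.894 in any library. Of the 6 atrial markers listed, however, 3 were tested. Nppa, 1 of these, held 1681 to 2467 normalised counts in knockout and 1934 to 2746 in control libraries. Whether atria were part of the samples was not tested.

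Promoter windows are shown for the 2 chains of collagen IV, which are transcribed head to head, for 2 chains of collagen VI, whose ratio separated the groups, and for Cilp, the member with the smallest p. The windows run from 250 bases before to 50 after a start site in RefSeq's GRCm38.p6 annotation, and 22 of the 36 members were matched to at least 1 window. Col4a1 (chr8:11312777-11313076, minus strand) and Col4a2 (chr8:11312555-11312854, plus strand) share a stretch of 78 bases, printed in capitals on the strand of each gene.
Col4a1: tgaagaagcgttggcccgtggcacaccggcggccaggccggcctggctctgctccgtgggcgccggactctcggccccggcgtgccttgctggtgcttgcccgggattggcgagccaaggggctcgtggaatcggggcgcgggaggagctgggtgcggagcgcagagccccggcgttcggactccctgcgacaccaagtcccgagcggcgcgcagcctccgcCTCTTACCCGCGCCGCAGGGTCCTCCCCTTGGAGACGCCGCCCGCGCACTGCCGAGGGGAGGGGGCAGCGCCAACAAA
Col4a2: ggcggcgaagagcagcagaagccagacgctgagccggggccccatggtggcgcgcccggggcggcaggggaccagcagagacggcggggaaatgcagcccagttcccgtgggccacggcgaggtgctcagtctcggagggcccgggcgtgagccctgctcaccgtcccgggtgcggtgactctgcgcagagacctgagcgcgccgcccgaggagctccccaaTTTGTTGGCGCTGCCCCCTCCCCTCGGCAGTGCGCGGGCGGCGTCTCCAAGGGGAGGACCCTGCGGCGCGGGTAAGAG

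Col6a1 (chr10:76725995-76726294) and Col6a2 (chr10:76623355-76623654) lie on the minus strand of the same chromosome, each with a start region of its own. The annotated genes, rather than these windows, are 85161 bases apart, and the windows carry no capitals. Col6a2 has 2 windows in RefSeq, of which the first listed is shown. In Cilp (chr9:65264930-65265229, plus strand) the capitals mark the letters TATAA.
Col6a1: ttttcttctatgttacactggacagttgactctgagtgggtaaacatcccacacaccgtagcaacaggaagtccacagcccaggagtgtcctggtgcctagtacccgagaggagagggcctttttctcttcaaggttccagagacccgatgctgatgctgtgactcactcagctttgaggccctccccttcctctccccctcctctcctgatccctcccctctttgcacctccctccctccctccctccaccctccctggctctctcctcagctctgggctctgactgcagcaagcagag
Col6a2: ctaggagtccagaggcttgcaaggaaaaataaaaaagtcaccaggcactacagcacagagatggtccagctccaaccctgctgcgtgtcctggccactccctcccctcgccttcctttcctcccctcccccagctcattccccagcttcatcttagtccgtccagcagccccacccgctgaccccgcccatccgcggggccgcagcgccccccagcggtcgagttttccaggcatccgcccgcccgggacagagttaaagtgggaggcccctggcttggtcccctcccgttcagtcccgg
Cilp: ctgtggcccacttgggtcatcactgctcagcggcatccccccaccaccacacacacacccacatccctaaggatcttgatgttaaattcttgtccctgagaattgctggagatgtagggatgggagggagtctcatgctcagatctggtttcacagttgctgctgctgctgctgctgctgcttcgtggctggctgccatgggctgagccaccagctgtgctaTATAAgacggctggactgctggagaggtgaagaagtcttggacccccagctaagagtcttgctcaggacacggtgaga

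Motifs were searched on both strands of all 32851 windows, and matches of different motifs may overlap at their ends. TATAA, the core of the TATA box, was found in 24.9% of all windows and in 6 of the 25 windows of the members. In Cilp it began at position -28 relative to the start site. GGGCGG, the core of the GC box that Sp1 binds, was in 16 of the 25 member windows, or 64%, and in 35.7% of all windows. The 25 windows belong to 22 members and are not all independent. The GGGCGG match of Col4a1 lies in the stretch shared with Col4a2 and counts in both windows. CCAAT was in 6 of the 25 and in 37.4% of all windows, and both windows of collagen IV held it. CAGACA, which contains the CAGA letters that SMAD proteins recognise, was in 9 of the 25 and in 21% of all windows, and none of the 5 windows shown held it. These matches describe letters and were not related to expression.

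No difference between knockout and control hearts passed the threshold in the 36 genes. limma called 0 of the 36, where it called 4 of the 18250 features, or 0.0219%, and edgeR on whole reads recovered from the table called 0 of the 36 as well, against 0.0274% of all features. For DESeq2 on those reads 18 members, without Cilp, had an adjusted p and 0 of these 18 were called, against 0.529% of all features with one. The authors' deposited table gave an adjusted p to 23 members, not Cilp, and called 0 of these 23, against 0.437% of its features with one. At an unadjusted p under 0.05 limma had 1 member, Cilp, or 2.78%, against 3.7% of all features (1.72% higher and 1.98% lower). With that threshold edgeR had 1 member, beside 689 of 18250 features, and DESeq2 had 1, beside 325 of 18245. Of the members 18 had a log2 fold change above 0, where 50.2% of all features did, and 18 below, with a median of -0.00055, beside a median of 0.00056 over all tested features. Knockout and control values overlapped in all 36 members, where 9.51% of all tested features had none (4.61% higher and 4.9% lower in knockout hearts). The members took 0.181%, 0.208% and 0.191% of the reads on nuclear features in knockout 492, 499 and 501, and 0.183%, 0.189% and 0.204% in control 490, 498 and 502.

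**Figure D1:**
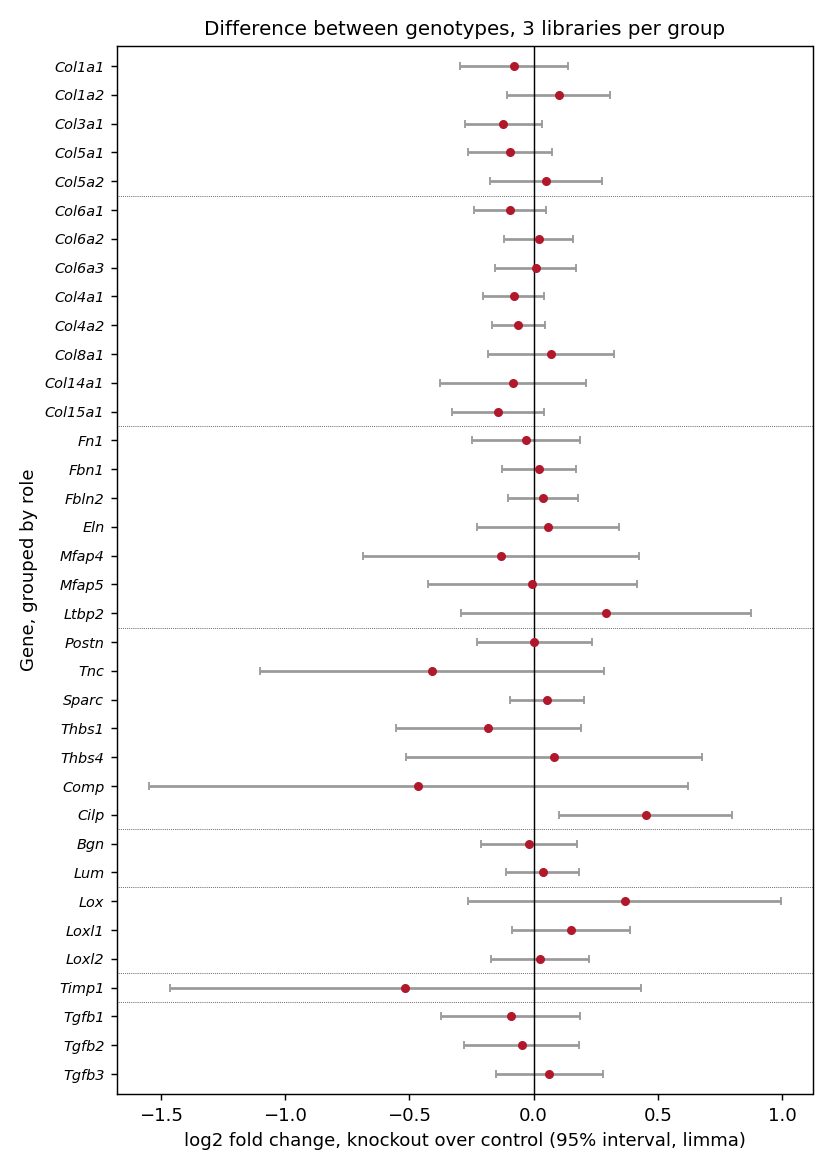
Each point is the log2 fold change of knockout over control of 1 gene on the scale log2(normalised count + 1), with its 95% interval from limma (3 libraries per group), and dotted lines part the roles. Points lie on both sides of 0, and Cilp at 0.45 is the gene whose interval does not reach 0.

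The 95% intervals, which are per gene and not adjusted for the number of genes, set how large a difference these libraries allow. The intervals of 28 of the 36 members lay within 1.5-fold in both directions, and those of 33 lay within 2-fold. For the 13 collagens the bounds ran from 0.772-fold to 1.252-fold of control. The 8 members whose intervals passed 1.5-fold were Mfap4, Ltbp2, Tnc, Thbs4, Comp, Cilp, Lox and Timp1.

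Among fibrillar collagens, which form the load-bearing fibres of the interstitium, 0 of 5 were called, and the log2 fold changes ran from -0.12 for Col3a1 to 0.10 for Col1a2. Col1a1 (chromosome 11, 94936224 to 94953042 in GRCm38.p6, the build of all gene positions given), the alpha 1 chain of collagen I, held 304, 401 and 355 normalised counts in knockout 492, 499 and 501, and 361, 361 and 393 in control 490, 498 and 502. The lowest and the highest of the 6 values were both knockout libraries. Its log2 fold change was -0.080 with a 95% interval from -0.30 to 0.14 (limma adjusted p = 1.00).

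Col1a2 (chromosome 6, 4505618 to 4541543), the alpha 2 chain of collagen I, held 611, 806 and 677 normalised counts in knockout hearts and 593, 651 and 700 in control hearts. Knockout 499 again stood highest, while control 490 was lowest. Col3a1 (chromosome 1, 45311538 to 45349706), the chain of collagen III, which forms thinner and more compliant fibres, held 1121, 1284 and 1118 in knockout 492, 499 and 501 and 1291, 1181 and 1360 in control 490, 498 and 502. Here 2 knockout libraries lay below all controls and the third lay within them, and the log2 fold change was -0.12 (SE 0.072, interval -0.28 to 0.032).

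Col5a1 and Col5a2, chains of collagen V, which sets the diameter of collagen fibrils, had log2 fold changes of -0.093 and 0.049. Within each library, the log2 ratio of Col1a1 to Col3a1 was -1.73 ± 0.13 in knockout and -1.78 ± 0.065 in control hearts (SD, n = 3), with overlap. These ratios are not corrected for transcript length, so only their differences between libraries can be read.

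Basement membrane and filament collagens were also uncalled, 0 of 8, with log2 fold changes from -0.14 for Col15a1 to 0.070 for Col8a1. Col4a1 (chromosome 8, 11198423 to 11312889), a chain of the collagen IV network beneath endothelium and around muscle cells, held 4226, 4283 and 4120 normalised counts in knockout 492, 499 and 501, and 4192, 4308 and 4870 in control 490, 498 and 502. Its partner Col4a2 (chromosome 8, 11312805 to 11449287) held 3186, 3123 and 3160 in knockout hearts and 3166, 3265 and 3458 in control hearts. Control 502 was highest for both chains, and the remaining 5 libraries lay close together. Log2 fold changes were -0.079 (SE 0.057) and -0.062 (SE 0.049), both with an adjusted p of 1.00 in limma. The annotations of this pair overlap by 85 bases on opposite strands, and the sources used here do not say if counting used strand, so reads there cannot be told apart.

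The 3 chains of collagen VI, which forms beaded filaments that link cells to the matrix, lay at -0.096 for Col6a1, 0.020 for Col6a2 and 0.0081 for Col6a3. Col8a1, a short-chain network collagen of vessels that is induced in remodelling hearts, held 597, 932 and 741 normalised counts in knockout 492, 499 and 501, against 704, 728 and 695 in control 490, 498 and 502. Knockout libraries took both ends of its range, and the controls lay close together. Without knockout 492 its log2 fold change was 0.23, and without knockout 499 it was -0.092. Col14a1, which decorates fibrils, and Col15a1, a basement membrane zone collagen, had log2 fold changes of -0.082 and -0.14.

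Glycoproteins of fibres and microfibrils had 0 of 7 called, with a median log2 fold change of 0.022. Fn1, fibronectin, which assembles early in a healing matrix, held 403, 514 and 498 normalised counts in knockout 492, 499 and 501, and 449, 457 and 534 in control 490, 498 and 502, a log2 fold change of -0.029. Fbn1, the main protein of microfibrils, and Fbln2, a fibulin that binds elastin and fibronectin, were at 0.022 and 0.038. Eln, elastin, held 271, 292 and 296 in knockout hearts and 355, 239 and 243 in control hearts. Control 490 alone was above the knockout libraries, and without it the log2 fold change of Eln was 0.24, where it was 0.059 with all libraries.

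Mfap4, Mfap5 and Ltbp2, which associate with microfibrils, were all lowest in knockout 492. Ltbp2 (chromosome 12, 84783212 to 84876558), a latent TGF-beta binding protein family member that marks activated fibroblasts, held 31.1, 68.2 and 63.2 normalised counts in knockout 492, 499 and 501, and 38.4, 38.5 and 48.8 in control 490, 498 and 502. Knockout 492 lay below every control and the other 2 knockout libraries above. Its log2 fold change was 0.29 (SE 0.27, interval -0.29 to 0.88), which moved to 0.64 without knockout 492 and to 0.090 without knockout 499. Mfap5 likewise held 90.2 in knockout 492 and 153 and 173 in the other knockout libraries, against 127, 131 and 146 in controls.

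Matricellular proteins, which signal to cells more than they build fibres, had 0 of 7 called and a median of 0.0035. Postn, periostin, the classical product of activated cardiac fibroblasts, held 299, 346 and 303 normalised counts in knockout 492, 499 and 501, and 286, 295 and 369 in control 490, 498 and 502. The mean was 316 ± 25.5 in knockout and 317 ± 45.7 in control hearts (SD, n = 3), and the interval of the log2 fold change ran from -0.23 to 0.23. Sparc, a collagen-binding protein, was at 0.054.

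Cilp (chromosome 9, 65265180 to 65280614), cartilage intermediate layer protein, which fibroblasts secrete in remodelling hearts and which binds TGF-beta, had the smallest p of the 36. It held 127, 199 and 159 normalised counts in knockout 492, 499 and 501, and 127, 101 and 122 in control 490, 498 and 502. Knockout 499 and 501 lay above all controls, whereas knockout 492 at 126.7 lay just under control 490 at 126.9. The log2 fold change was 0.45 (SE 0.16, interval 0.10 to 0.80) with an unadjusted p of 0.0146 and a limma adjusted p of 1.00 over all features. It ranged from 0.29 without knockout 499 to 0.61 without knockout 492.

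Tnc, tenascin-C, a protein of wound edges, held 23.6, 26.5 and 21.4 normalised counts in knockout 492, 499 and 501, and 41.1, 17.9 and 43.8 in control 490, 498 and 502. Control 498 lay below all knockout libraries and the other controls above them. Its log2 fold change of -0.41 (SE 0.32) was -0.81 without control 498 and -0.19 without control 502.

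Thbs1, thrombospondin 1, which can release TGF-beta from its latent form, held 211, 265 and 240 normalised counts in knockout hearts and 387, 219 and 232 in control hearts. Control 490 alone stood above the knockout libraries. The log2 fold change was -0.18 (SE 0.17), and it turned to 0.078 without control 490. Thbs4 at 0.081 and Comp at -0.46, both pentameric thrombospondins, rested on 19 to 28 and 4 to 22 reads per library. Comp was at 4.29 normalised counts in knockout 492, against 15.8 to 16.1 in the other knockout libraries and 8.04 to 22.4 in controls, and its log2 fold change was 0.096 without knockout 492.

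**Figure D2:**
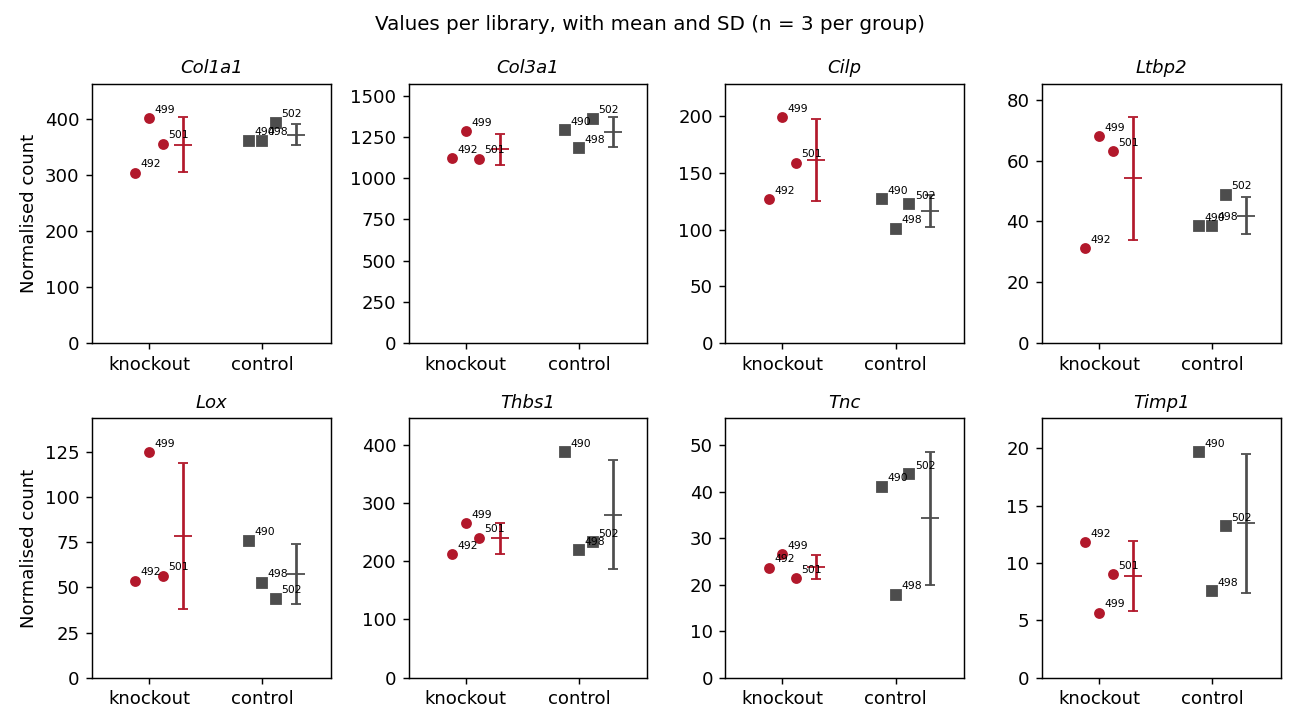
Normalised counts (vertical axis, from 0) of 8 members in each library, knockout left of control, with library numbers beside the points and the mean and SD at the side (n = 3 per group). Single libraries set several differences, as knockout 499 does for Lox at 125 and control 490 for Thbs1 at 387.

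Crosslinkers and proteoglycans, which stiffen and space the fibres, gave 0 calls of 3 and of 2. Lox (chromosome 18, 52516060 to 52529867), lysyl oxidase, held 53.7, 125 and 56.4 normalised counts in knockout 492, 499 and 501, and 75.9, 52.6 and 43.8 in control 490, 498 and 502. The value of knockout 499 was far above the rest, and the log2 fold change of 0.37 (SE 0.29) was -0.024 without that library. Loxl1, which acts on elastic fibres, was at 0.15 (SE 0.11) and also peaked in knockout 499, with 537 against 413 and 404 in the other knockout libraries and 364 to 442 in controls. Loxl2, which acts on collagen IV, was at 0.025. Bgn, biglycan, and Lum, lumican, 2 small proteoglycans that bind fibrillar collagen, were at -0.018 and 0.036.

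Timp1, an inhibitor of matrix metalloproteinases that rises in fibrosis, held 11.8, 5.68 and 9.03 normalised counts in knockout 492, 499 and 501, and 19.7, 7.52 and 13.2 in control 490, 498 and 502, or 6 to 22 reads. With so few reads the 95% interval of its log2 fold change of -0.52 ran from -1.46 to 0.43.

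TGF-beta ligands, the main profibrotic signals, had 0 of 3 called. Tgfb1 held 143, 195 and 169 normalised counts in knockout 492, 499 and 501, and 165, 175 and 197 in control 490, 498 and 502, a log2 fold change of -0.091 (SE 0.13). Tgfb2 was at -0.047 and Tgfb3 at 0.063, with intervals from -0.28 to 0.18 and from -0.15 to 0.28. All 3 ligands were lowest in knockout 492.

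Single libraries of either genotype stood high or low over many members. Knockout 492 was the lowest of the 6 libraries in 15 of the 36 members, among them Col1a1, Col5a1, Col8a1, Fn1, Ltbp2, Bgn and the TGF-beta ligands. That library was lowest in 17.9% of all tested features. Knockout 499 was highest in 13 members, among them Col1a1, Col1a2, Col8a1, Cilp, Lox and Loxl1, and in 15.8% of all features. Control 502 was highest in 15, among them Col3a1, Col4a1, Col4a2, Col15a1, Postn, Fn1 and Sparc, and in 16.4% of all features. Together, knockout 499 and control 502 held the highest value of 28 members, 12 of the 13 collagens included.

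Knockout 492 lay below knockout 499 in 31 of the 36 members, where the same held for 49.3% of all tested features. The median deviation of the members from their own mean, on the log2 scale, was -0.13, 0.11 and -0.014 in knockout 492, 499 and 501, and -0.038, -0.039 and 0.089 in control 490, 498 and 502. Over all tested features this deviation did not pass 0.0036 in any library. For the fibroblast marker list, a set of 19 genes, it was -0.079, 0.056 and -0.0027 in the knockout libraries and -0.024, 0.012 and 0.051 in the controls, the same 2 libraries being highest and the same 1 lowest. Markers of other cells also varied with the library. The 10 endothelial markers were lowest in knockout 492 at -0.062 and highest in knockout 499 at 0.044, and the 5 cartilage, tendon and valve markers stood at -0.22 and 0.25 in these libraries. Control 502, where the members stood high, was at -0.021 for the endothelial and -0.20 for the cartilage, tendon and valve markers. The 6 blood markers were lowest in knockout 492 at -0.23 and highest in knockout 501 at 0.23, and the 10 macrophage markers were highest in knockout 499 at 0.10 but lowest in control 490 at -0.19. The 11 pericyte and smooth muscle markers were instead highest in knockout 492, at 0.040. Fewer cells of a type and less RNA per cell cannot be told apart in bulk tissue, and the part of cell composition in the spread was not tested. Within groups, the chi-square of the reads against counting error was at least 2 per degree of freedom in 31 of the 36 members. Its median was 4.20 over the members and 1.79 over all tested features, and the value also grows with the number of reads.

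**Figure D3:**
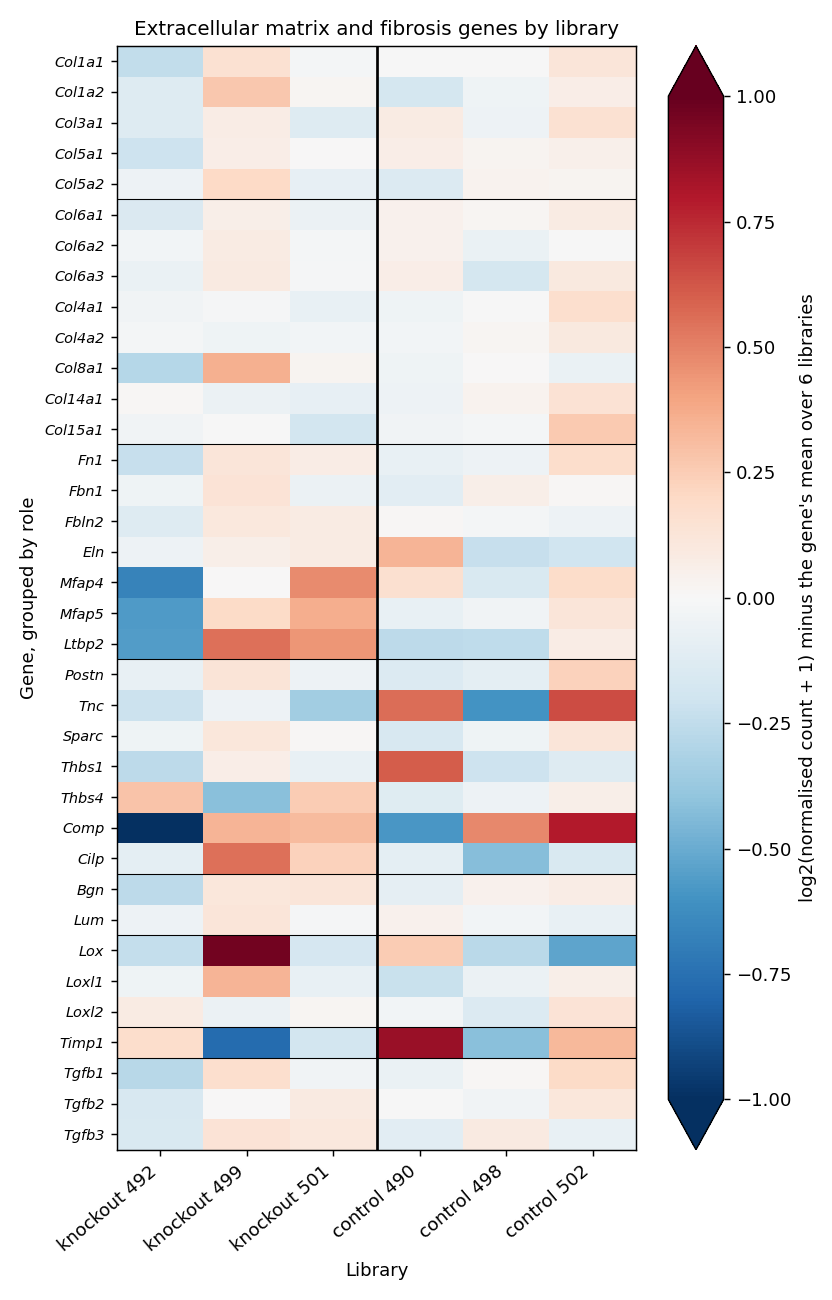
Colours give log2(normalised count + 1) of each gene (rows, grouped by role) in each library (columns, knockout left of the black line) minus the mean of that gene over the 6 libraries. Red in knockout 499 and control 502 and blue in knockout 492 run through many rows, and no row separates the genotypes.

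Ratios between chains of the same collagen cancel any shift that a whole library shares, and these were examined after the values were seen. Of 6 pairs, 3 did not overlap between the groups, all 3 lower in knockout hearts, and the pairs share chains. Of single features 9.51% did not overlap, but no such share was computed for ratios between other genes. The log2 ratio of Col1a1 to Col1a2 was -1.005, -1.003 and -0.93 in knockout 492, 499 and 501, and -0.72, -0.85 and -0.83 in control 490, 498 and 502. The means were -0.98 ± 0.044 in knockout and -0.80 ± 0.072 in control hearts (SD, n = 3), a difference of -0.18 that ranged from -0.21 to -0.14 when single libraries were left out. For Col6a1 to Col6a2 the ratio was -0.035 ± 0.050 and 0.082 ± 0.050 in knockout and control hearts. This separation was narrow, with the highest knockout value at 0.0015 (knockout 499) and the lowest control value at 0.024 (control 490).

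Col6a1 to Col6a3 was -0.41 ± 0.025 in knockout and -0.31 ± 0.13 in control hearts, and its difference of -0.10 fell to -0.032 without control 498. Here the groups nearly touched, at -0.390 in knockout 499 and -0.385 in control 490. Col4a1 to Col4a2 was 0.42 ± 0.037 in knockout and 0.43 ± 0.053 in control hearts, with overlap. Col5a1 to Col5a2 and Col6a2 to Col6a3 also overlapped. No test was run on these ratios.

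**Figure D4:**
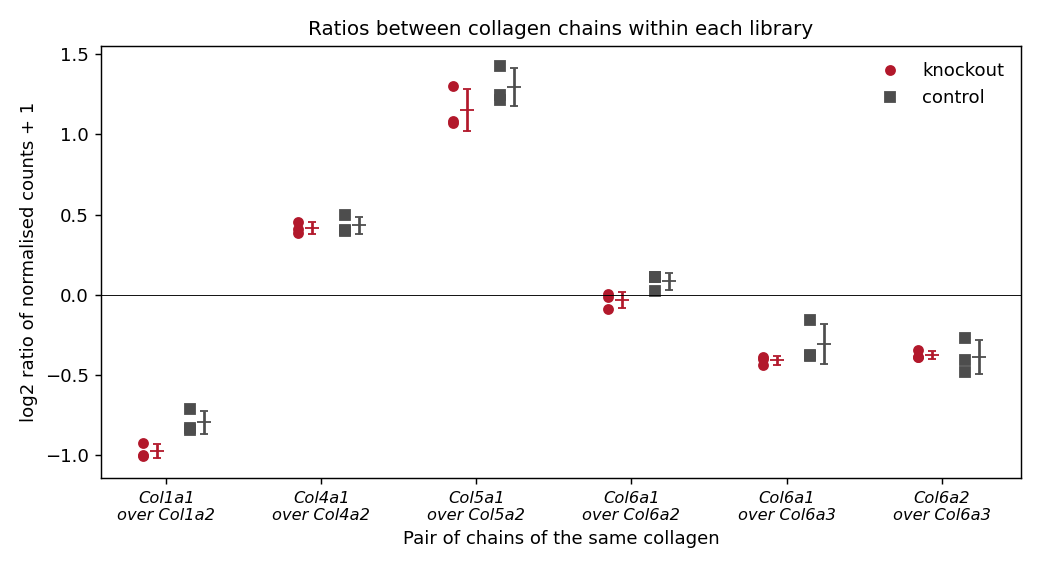
Log2 ratios of normalised counts (+ 1) between chains of the same collagen, 1 point per library, knockout left of control, with mean and SD (n = 3 per group). Col1a1 over Col1a2 lies between -1.01 and -0.93 in knockout and between -0.85 and -0.72 in control libraries.

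Genes around the members in the pathway gave no call either. Over 6 lists of TGF-beta signalling, TGF-beta response, collagen processing, matrix proteases, other matrix proteins and basement membrane, limma called 0 of 132 tested genes. At an unadjusted p under 0.05 it had 7, or 5.3%, 3 higher and 4 lower, against 3.7% of all features (1.72% higher and 1.98% lower). Their median log2 fold change was 0.0051. The groups did not overlap in 15 of the 132, or 11.4%, against 9.51% of all tested features.

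In collagen synthesis and processing, 25 genes with a median of -0.037, Crtap, a subunit of the complex that hydroxylates proline and folds procollagen, had the smallest p. Crtap held 148, 145 and 126 normalised counts in knockout 492, 499 and 501, against 186, 189 and 176 in control 490, 498 and 502. All knockout values lay below all controls, yet the log2 fold change of -0.39 (SE 0.11) had a limma adjusted p of 0.900. Serpinh1, the collagen chaperone HSP47, was at -0.10 with no overlap, at 2436 ± 28.8 in knockout and 2612 ± 72.5 in control hearts (SD, n = 3), and also missed the threshold (adjusted p = 1.00).

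TGF-beta receptors, SMADs and activators had a median of -0.020 over 24 genes, with Itgb8, part of an integrin that activates TGF-beta, at 0.39 and Itgb1 at -0.11. TGF-beta response and myofibroblast genes had a median of 0.042 over 17 tested, with Ccn1, a matricellular response gene, at 0.25 and Acta2, smooth muscle actin, at 0.18. Matrix proteases and inhibitors stood at 0.042 over 21, with Mmp19 at 0.47 and Mmp15 at -0.12. Other proteoglycans and glycoproteins had a median of 0.027 over 28, with Spon1 at 0.16 and Ltbp1 at -0.12. Basement membrane genes had one of -0.023 over 19, with Lamb2, a laminin chain, at -0.12 and Agrn, agrin, at 0.14. None of these genes passed the threshold.

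Some genes that rise in active fibrosis stayed below the level for testing in all hearts. Cthrc1, a marker of matrix-producing fibroblasts, ranged from 1.07 to 2.26 normalised counts in knockout and from 0.894 to 2.04 in control libraries. Spp1, osteopontin, ranged from 1.13 to 5.68 in knockout and from 1.79 to 5.64 in control libraries. Il11, a profibrotic cytokine, ranged from 1.07 to 1.89 in knockout and from 0 to 7.12 in control libraries.

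Markers of the cells that make or surround the matrix showed 0 calls in any list. Fibroblast markers summed to 25482 to 27076 normalised counts in knockout and 24928 to 26399 in control libraries, with a median log2 fold change of -0.016 over 19 genes, Thy1 at -0.30 and Dcn, decorin, at 0.080. Endothelial markers summed to 16194 to 16885 in knockout and 16500 to 16917 in control libraries (median 0.00076, Egfl7 -0.059, Flt1 -0.068). Their log2 fold changes were above 0 in 5 of 10, up to 0.10, and below 0 in 5. Macrophage markers summed to 2975 to 3284 in knockout and 2846 to 3134 in control libraries (median 0.042), with C1qc at 0.13. Adgre1, which encodes F4/80, was at 0.35, with 118 ± 13.1 in knockout and 92.0 ± 5.1 in control hearts and no overlap (adjusted p = 1.00). Of the 10 macrophage markers 6 lay above 0 and 4 below, down to -0.23. Adgre1 was the 1 without overlap, or 10% of the list, against 9.51% of all tested features.

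Pericyte and smooth muscle markers had a median of 0.011 over 11 genes (Acta2 0.18, Abcc9 -0.090). Cartilage, tendon and valve markers, which could accompany Comp and Cilp, had 5 of 13 genes tested and summed to 250 to 324 in knockout and 269 to 280 in control libraries (Cytl1 -0.17, Prg4 0.12), and Tnmd was at 0 throughout. The 7 adipocyte markers summed to 1.07 to 7.90 in knockout and 0.940 to 4.07 in control libraries. Among 8 epicardial and mesothelial markers only Wt1 was tested, at 0.12, and Msln and Krt19 were at 0. Schwann cell markers had a median of -0.14 over 4 (Kcna1 -0.20, Mbp 0.13), atrial markers one of -0.043 over 3 (Nppa -0.20, Myl4 0.46) and blood markers one of -0.0062 over 6 (Ptprc 0.13, Alas2 -0.10).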

How the data were processed

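The total-RNA table holds signal per gene, deposited by the authors as normalised counts, 1 column per library. The submitters' processing notes name DESeq2 1.22.2, R 3.5.2, featureCounts, bedtools and Bowtie2 2.3.4.1 without roles, with the builds mm10 and GRCm38. The authors' deposited DESeq2 table gives log2 fold changes, a test score and p-values, used as an alternative only. Columns name a genotype and a library number. The mitochondrial RNA end libraries of the series were not analysed here.

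Dividing each column by the worth of 1 read gave whole reads for 100% of 156689 nonzero values (tolerance 0.01 reads). Features averaging 10 or more (18250) were tested on log2(value + 1), where fold changes of low genes are understated, with limma 3.58.1 in R 4.3.3 (trended prior, genotype as the only term, 2-sided, Benjamini-Hochberg at 0.05 over all features). The fit was also run on counts simulated with the spread estimated from these libraries. Changes were added there only to features averaging 50 or more, so that run does not cover changes in lower genes. Alternatives used edgeR 4.0.16 and DESeq2 1.42.0 on the recovered reads. Members, lists and the rule for naming other genes (up to 4 called genes per list, otherwise the 2 of smallest p) were chosen with earlier results of these data known. The chain ratios and the untested genes Cthrc1, Spp1, Il11, Msln, Krt19, Tnmd, Myl7 and Sln were picked after values were seen. Depth limits genes with few reads, such as Comp and Timp1, the most. Intervals do not cover differences between animals beyond these libraries.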

Additional observations from a re-analysis of the deposited data

How the results depend on the processing

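None of the 18 alternatives called a member. DESeq2 gave an adjusted p to 18 members and the authors' deposited table to 23, and the filter at a mean of 50 left out Ltbp2, Tnc, Thbs4, Comp and Timp1. The smallest adjusted p of a member over all of them was 0.560, for Col3a1 under equal read totals. The median of the members was -0.061 to 0.045 when 1 library was left out and -0.070 under equal totals, which moves the median of all features by as much (-0.069). Under equal totals 6 members had an unadjusted p under 0.05, against 1 in the main analysis. Over all 18250 features this number also rose under equal totals, from 675 to 1498, of which 119 were higher and 1379 lower in knockout hearts. No paired analysis was possible because the columns carry library numbers and not the replicate numbers of the labels. Depth limits Comp, Timp1, Tnc and Thbs4.

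Over the whole table, 4 features were called, against 12 without a filter, 37 under equal totals, 0 by limma without a trended prior (835 at an unadjusted p under 0.05), 12 with robust moderation, 31 by DESeq2, 33 in the authors' deposited table and 1 to 8 when 1 library was left out (1 without knockout 499, control 498 or control 502, and 8 without control 490). The cause was not tested. Equal totals turned the sign of 11 members, all near 0: Col5a2 (-0.021), Col6a2 (-0.050), Col6a3 (-0.062), Fbn1 (-0.048), Fbln2 (-0.032), Eln (-0.011), Postn (-0.066), Sparc (-0.016), Lum (-0.034), Loxl2 (-0.045) and Tgfb3 (-0.0069). Equal nuclear totals turned Mfap5 (0.023) and Bgn (0.0099), and Mfap5 was 0.050 in edgeR, 0.047 in DESeq2 and 0.047 in the authors' deposited table.

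Leaving out 1 library turned the sign of 23 members, with log2 fold changes of -0.18 to 0.025 for Col1a1, -0.0079 to 0.19 for Col1a2, -0.040 to 0.10 for Col5a2, -0.017 to 0.046 for Col6a2, -0.079 to 0.059 for Col6a3, -0.092 to 0.23 for Col8a1, -0.096 to 0.080 for Fn1, -0.040 to 0.058 for Fbn1, -0.0062 to 0.11 for Fbln2, -0.040 to 0.24 for Eln, -0.40 to 0.17 for Mfap4, -0.19 to 0.28 for Mfap5, -0.066 to 0.12 for Postn, -0.014 to 0.13 for Sparc, -0.33 to 0.078 for Thbs1, -0.043 to 0.31 for Thbs4, -0.87 to 0.096 for Comp, -0.084 to 0.11 for Bgn, -0.014 to 0.071 for Lum, -0.024 to 0.58 for Lox, -0.039 to 0.097 for Loxl2, -0.20 to 0.024 for Tgfb1 and -0.10 to 0.021 for Tgfb2. The other 13 members, Cilp and Col3a1 among them, kept their sign in all 6 such fits. The difference in the share of nuclear reads on the members was -0.0059 to 0.0075 percentage points in these fits.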
